A study of Mus musculus with 6 samples.

Results

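The genes described are the voltage-gated sodium channel genes Scn1a, Scn2a, Scn3a and Scn8a, which encode pore subunits, Scn2b, Scn3b and Scn4b, which encode auxiliary beta subunits, and Nalcn, which encodes a sodium leak channel. They were selected by name, and all 8 are among the 19938 genes measured in the dentate gyrus (DG). Where a gene had several probe sets, the brightest on average stands for it. Dentate granule cells were cut from cresyl violet stained cryosections by laser capture, and RNA of 3 control and 3 Bcl11b mutant samples was hybridized to 1 Affymetrix array each. The mutants carried Bcl11b flox/flox alleles together with tetO-Cre and CaMKIIα-tTA. Their Cre is therefore switched on wherever the CaMKIIα promoter is active in forebrain neurons, and not in granule cells alone. Both groups received doxycycline in the drinking water through embryogenesis and up to 2 months of age, and tissue was taken 4 weeks after its removal. No source used here states the alleles of the controls of this line, or whether an array holds 1 animal. The p-values therefore measure the spread between these samples, which may in part be technical.

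Voltage-gated sodium channels open when the membrane depolarizes and carry the inward current of the action potential. One large pore subunit forms the channel, and beta subunits, which resemble cell adhesion molecules, modify its gating and its place on the membrane. Ankyrin G gathers the channels at the axon initial segment, where spikes start, and at nodes of Ranvier. NALCN conducts a steady sodium leak that helps to set the resting potential, and it works in a complex with UNC79, UNC80 and a NALF protein. Dentate granule cells are known for sparse firing, so the genes of spike initiation are of interest in them.

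The values are log2 expression levels, so a difference of 1 is a doubling. A gene was called changed at an adjusted p under 0.05 (limma, Benjamini-Hochberg adjustment over all genes tested). Bcl11b itself was at 10.56, 10.40 and 10.30 in the controls and at 9.03, 8.68 and 8.82 in the mutants, so it was lower in every library labelled mutant (log2 change -1.58, adjusted p = 2.56e-05). Whether its probes lie in the floxed sequence is not stated. Of all genes tested, 15.2% were called, 9.23% as higher and 5.93% as lower in the mutants, so that 60.9% of the calls were higher. This last share became 44.2% after each array was centred on its median, which moved the median change of all genes from -0.0027 to -0.051. The granule cell marker Prox1 was between 11.45 and 11.81 in controls and between 11.57 and 11.65 in mutants. Of 11 granule cell markers, 1 was higher and 7 were lower in the mutants, with a mean level of the list of 10.90 to 10.99 in control arrays and of 10.22 to 10.33 in mutant arrays. The list holds C1ql2 (log2 change -3.29), whose promoter the paper proposes to be bound by Bcl11b. It also holds Dsp (-0.81), the gene of desmoplakin, which the paper calls a direct target of Bcl11b. The median change of the list was -0.53, and the part of these 2 genes in its mean was not tested. In such a sample, fewer cells of a type and less RNA per cell cannot be told apart.

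Of the 8 sodium channel genes, Scn2b rose and Scn4b fell, and the other 6 did not pass the test. This is 1 of 8 in each direction, where the background is 9.23% higher and 5.93% lower, and a count of 1 says nothing about the family. The median change of the 8 genes was -0.013, beside -0.0027 for all genes, and single genes ranged from -0.30 to 0.34. Control and mutant arrays did not overlap for 5 of the 8 genes, which were Scn1a, Scn2a, Scn3a, Scn2b and Scn4b, while this held for 31.6% of all genes. All changes are small. The fold between groups was 1.27 for Scn1a, 1.23 for Scn4b, 1.21 for Scn2b and 1.14 for Scn3a. With 3 arrays a group, p from exact permutation is 0.1 at best.

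**Figure D1:**
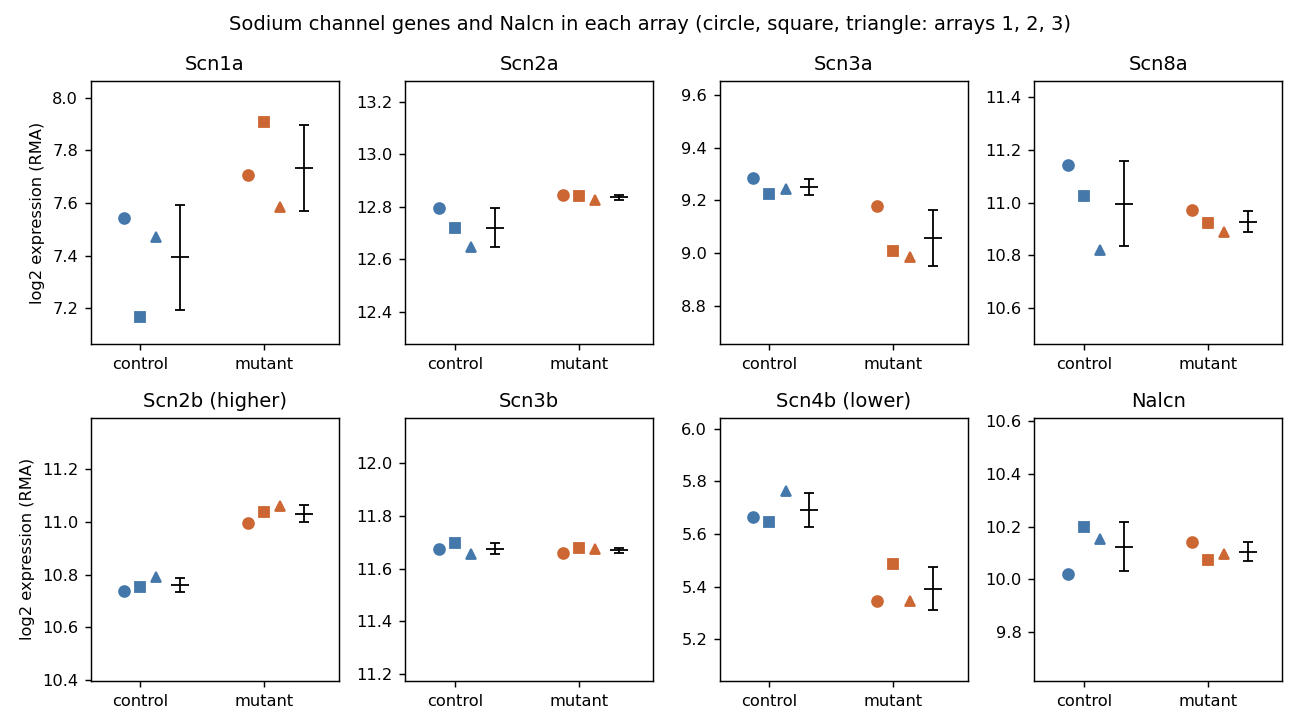
Log2 expression of the 8 genes in each array on the vertical axis, with controls in blue and mutants in orange. Circles, squares and triangles are arrays 1, 2 and 3 of a group, black bars give the mean and SD (n = 3), and every panel spans the same range on the log2 scale. Scn2b lies near 10.76 in controls and near 11.03 in mutants without overlap, whereas the points of Scn3b share 1 level.

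Among the beta subunits, Scn2b, which encodes a subunit linked to the pore by a disulfide bond, was the more precisely measured of both called genes. Its log2 levels were 10.74, 10.75 and 10.79 in controls and 10.997, 11.04 and 11.06 in mutants (probe set 10584855). Every mutant array lay above every control array, and the spread within a group was small beside the gap. The mean of the controls was 10.76 ± 0.027 (SD, n = 3) and that of the mutants 11.03 ± 0.032 (SD, n = 3). The log2 change was 0.27 (95% confidence interval 0.16 to 0.39, adjusted p = 0.00763 from limma). On the linear scale this is 1.21-fold, with an interval of 1.11 to 1.31. Scn2b passed under 17 of 18 other settings, with changes from 0.22 to 0.29, and fell out only where a fold of at least 1.5 was asked for.

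Scn4b encodes the subunit known for its part in the resurgent sodium current, and like the beta2 subunit it binds the pore by a disulfide bond. Its levels were 5.67, 5.65 and 5.76 in controls and 5.35, 5.49 and 5.35 in mutants (probe set 10584862). The groups did not overlap, and mutant 2 lay closest to the controls. The mean of the controls was 5.69 ± 0.063 (SD, n = 3) and that of the mutants 5.39 ± 0.081 (SD, n = 3). This is a log2 change of -0.30 (interval -0.44 to -0.16, adjusted p = 0.0128 from limma). Both groups lie under the medians of the arrays, which were between 6.29 and 6.36. The files carry no measure of detection, so it is not shown that Scn4b stands above background, and the size of its change is not exact. The call was lost without mutant 1 or mutant 3 (adjusted p = 0.0616 and 0.0611) and with the methods' t-test after adjustment (adjusted p = 0.0782).

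Scn3b, whose product joins the pore without a covalent bond, did not differ between the groups beyond its spread. It was at 11.68, 11.70 and 11.66 in controls and at 11.66, 11.68 and 11.67 in mutants (probe set 10584549). The values of both groups are interleaved, with SDs of 0.020 and 0.0093. The log2 change was -0.0059 with an interval of -0.12 to 0.11 (adjusted p = 0.963 from limma), an interval that reaches from 0.922 to 1.08 on the linear scale.

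Scn2b and Scn4b are direct neighbours, with 0 annotated genes between them in the RefSeq table of GRCm38.p6, and both are read from the same strand. The 250 bases before the annotated start of each are shown because these neighbours are the called members and changed in opposite directions. Capitals mark TGGGC, the sequence that the study takes as a putative Bcl11b binding site, searched on both strands, so that it appears as TGGGC or GCCCA. The sequences are RefSeq's for GRCm38.p6, on the plus strand.
Scn2b, chr9:45117626-45117875: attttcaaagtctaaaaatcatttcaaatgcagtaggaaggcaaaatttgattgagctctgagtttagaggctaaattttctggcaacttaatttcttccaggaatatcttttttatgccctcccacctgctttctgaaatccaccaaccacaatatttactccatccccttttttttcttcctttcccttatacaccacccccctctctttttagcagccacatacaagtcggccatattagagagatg
Scn4b, chr9:45138374-45138623: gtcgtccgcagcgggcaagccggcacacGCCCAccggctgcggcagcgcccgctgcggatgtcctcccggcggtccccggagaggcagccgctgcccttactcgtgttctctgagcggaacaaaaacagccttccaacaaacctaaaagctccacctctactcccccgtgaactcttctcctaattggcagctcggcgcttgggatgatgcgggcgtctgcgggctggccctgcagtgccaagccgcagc
The window of Scn2b holds 0 matches and that of Scn4b holds 1. The windows also differ in base composition, with 38.4% G and C for Scn2b and 66.0% for Scn4b. Promoter entries were found for 6 of the 8 genes, not for Scn3a and Scn3b, and 4 of their 8 windows hold a match. Of the 32851 windows of this length in the table, 50.7% hold one, so a match of 5 letters is common, and it is a description of the letters and not of binding.

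None of the pore subunits passed the test with limma, nor with the methods' t-test after adjustment. At an unadjusted p under 0.05 Scn1a was higher and Scn3a lower with limma, while with the methods' t-test Scn3a alone passed and Scn1a did not. Scn1a encodes Nav1.1, which is known above all from fast-spiking interneurons. Its levels were 7.54, 7.17 and 7.47 in controls and 7.71, 7.91 and 7.58 in mutants (probe set 10483299). All mutant arrays lay above all controls, but control 1 and mutant 3 were only narrowly apart. Scn1a thus had a log2 change of 0.34 with an interval of 0.085 to 0.60 (adjusted p = 0.0806 from limma), and the SDs of 0.20 and 0.16 were the widest among the 8 genes. It passed without control 1 (log2 change 0.42, adjusted p = 0.0243) and with array weights (0.48, adjusted p = 0.00537).

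Markers of interneurons stand beside this result. Of 11 such markers, 0 were higher and 2 lower in the mutants by limma, where 9.23% of all genes were higher and 5.93% lower. The called markers were Gad1 (log2 change -0.27) and Npy (-0.58). Changes over the list ranged from -0.58 to 0.12 with a median of -0.0063, so the list did not fall as a whole. Pvalb had a log2 change of -0.33 (adjusted p = 0.0657). The mean level of the list was between 7.95 and 8.28 in control arrays and between 8.0001 and 8.14 in mutant arrays, and control 2 was lowest of the 6 arrays both for this list and for Scn1a. The part of interneurons in the Scn1a values was not tested.

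Scn3a encodes Nav1.3, a channel most abundant before birth. Its levels were 9.28, 9.22 and 9.24 in controls and 9.18, 9.01 and 8.98 in mutants (probe set 10483228). The groups did not overlap, with mutant 1 close to the controls. The log2 change was -0.19 with an interval of -0.34 to -0.047 (adjusted p = 0.0839 from limma). The call depended on the scaling: Scn3a passed after renewed quantile normalization (-0.24, adjusted p = 0.0341) and after centring on array medians (-0.24, adjusted p = 0.0379). Without mutant 1 it passed as well (-0.26, adjusted p = 0.0406). Of 9 markers of immature granule cells, 3 were higher and 0 lower by the same test, where 9.23% of all genes were higher and 5.93% lower. The 3 were Dcx with a log2 change of 1.07, Sox11 with 0.46 and Neurod1 with 0.34. Changes over the list ranged from -0.33 to 1.07 with a median of 0.037, so the rise was not shared by the whole list. Of the genes not called, Eomes, Tac2 and Neurod4 had control means of 5.82, 5.28 and 4.76, under the array medians. Igfbpl1, Draxin and Calb2 lay above the medians. The mean level of the list was 7.06 to 7.33 in control and 7.26 to 7.43 in mutant arrays, and its part in the Scn3a values was not tested.

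Scn8a encodes Nav1.6, the main channel of the mature initial segment and of nodes. It was at 11.14, 11.03 and 10.82 in controls and at 10.97, 10.92 and 10.89 in mutants (probe set 10426955). All mutant arrays lay within the range of the controls. The log2 change was -0.068 with an interval of -0.25 to 0.12 (adjusted p = 0.667 from limma), and it was 0.0041 without control 1.

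Scn2a encodes Nav1.2, which is found along unmyelinated axons such as the mossy fibers and in the initial segment. Its probe set of highest mean (10472398) gave 12.79, 12.72 and 12.65 in controls and 12.84, 12.84 and 12.82 in mutants. The groups did not overlap, but control 1 came close to the mutants. The log2 change was 0.12 with an interval of -0.012 to 0.24 (adjusted p = 0.230 from limma), and 0.046 for the mean of all its probe sets.

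Scn2a is the only one of the 8 genes with more than 1 probe set of its own, with 14 in all, and these did not give 1 answer. None of the 14 passed when every probe set of the array was tested on its own (smallest adjusted p = 0.225 from limma), 1 had an unadjusted p under 0.05, and the methods' t-test gave the same counts. Their log2 changes ran from -0.12 to 0.16 with a median of 0.067. The 5 probe sets with the lowest numbers lay between -0.12 and 0.00099, and the 9 with higher numbers between 0.019 and 0.16, a split chosen after the values were seen. Probe set 10472366 had 9.39, 9.49 and 9.47 in controls and 9.29, 9.35 and 9.35 in mutants, so that its mutant arrays lay below its controls. Probe set 10472386 had 11.44, 11.33 and 11.23 in controls and 11.53, 11.46 and 11.49 in mutants, with the mutants above. The sources used here do not place the probe sets along the transcript, and the difference between them was not tested.

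**Figure D2:**
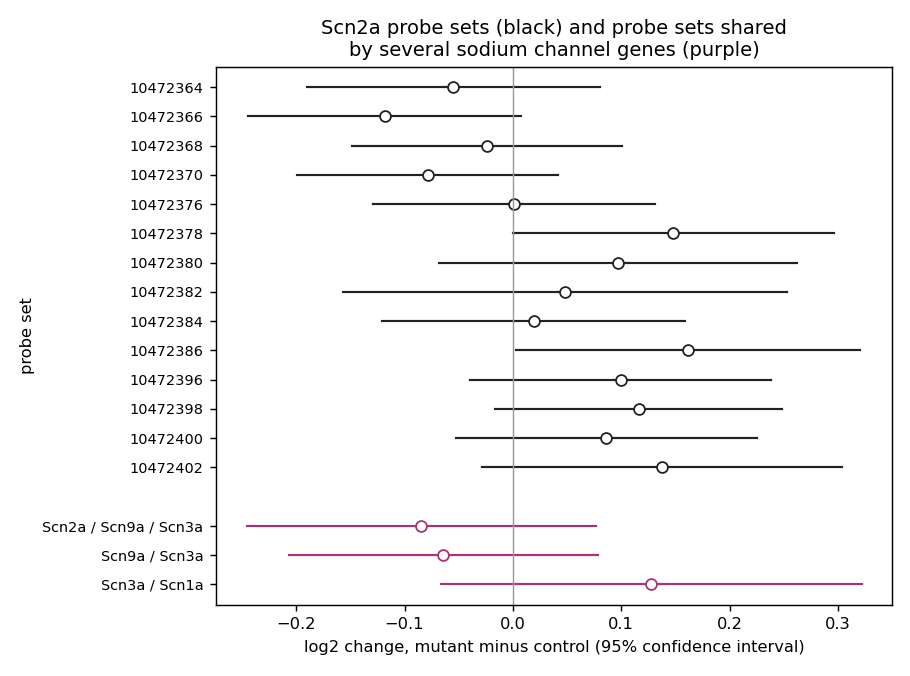
Log2 change (mutant minus control, horizontal axis) of the 14 probe sets of Scn2a in order of their numbers, in black, and of 3 probe sets that the annotation pairs with several sodium channel genes, in purple. Circles are changes and lines 95% confidence intervals from limma over all probe sets (n = 3 arrays per group). The 5 uppermost black circles lie between -0.12 and 0.00099 and the 9 below them between 0.019 and 0.16.

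The pore genes are alike in sequence, and 3 further probe sets are paired with several of them and were left out of the gene values. In the RefSeq table Scn3a and Scn2a are direct neighbours, and Scn1a, Scn9a and Scn7a lie on the same chromosome. The probe set shared by Scn3a and Scn1a had a log2 change of 0.13, between the 0.34 of Scn1a and the -0.19 of Scn3a. The probe set shared by Scn9a and Scn3a had -0.064 and that shared by Scn2a, Scn9a and Scn3a -0.085. None of the 3 passed the test with limma (adjusted p = 0.440, 0.618 and 0.551). The probe set shared by Scn9a and Scn3a is numbered among those of Scn2a. Its control mean was 11.30, beside 9.25 for Scn3a and 5.66 for Scn9a. Which gene gives its signal was not tested. The other sodium channel genes measured were Scn9a, Scn7a, Scn10a and Scn11a, which are known mainly from peripheral neurons or, for Scn7a, from sensing of sodium. Their log2 changes were 0.065, -0.071, 0.091 and 0.0023. Of these 4 genes 0 passed with limma, 0 with the methods' t-test and 0 at an unadjusted p under 0.05. Their control means lay between 4.64 and 5.75, under the array medians.

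Nalcn itself did not pass the test, while both large partners of the leak channel were called higher with limma. Nalcn was at 10.02, 10.20 and 10.15 in controls and at 10.14, 10.07 and 10.10 in mutants (probe set 10422537). The mutants lay within the range of the controls, with a log2 change of -0.020 and an interval of -0.16 to 0.12 (adjusted p = 0.888 from limma). Unc80, which encodes the bridge between UNC79 and the channel, was at 11.39, 11.04 and 10.98 in controls and at 11.65, 11.67 and 11.62 in mutants. Its log2 change was 0.51 (interval 0.28 to 0.73, adjusted p = 0.00890 from limma), and control 1 stood closest to the mutants. A further probe set of Unc80 also rose, with a log2 change of 0.37 (adjusted p = 0.00751 from limma over all probe sets).

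Unc79 was at 10.004, 9.83 and 9.82 in controls and at 10.30, 10.33 and 10.27 in mutants. Its groups did not overlap, and the log2 change was 0.42 (interval 0.27 to 0.56, adjusted p = 0.00287 from limma). Nalf1, listed on the array as Fam155a, encodes a membrane protein needed to bring NALCN to the cell surface. It was at 11.16, 10.73 and 10.62 in controls and at 11.06, 11.09 and 11.04 in mutants. Control 1 lay above all mutants and the other controls below them, with a log2 change of 0.23 (adjusted p = 0.275 from limma). Its further probe set, under the array medians, had a log2 change of 0.0039 (adjusted p = 0.988 from limma over all probe sets). The changes of Unc79 and Unc80 exceeded that of Nalcn by 0.44 and 0.53. In a two-sided exact permutation test of these within-array differences each gave p = 0.100, the smallest that 3 arrays against 3 can give. Unc79 and Unc80 had already been called higher in these data and Nalcn had not, so this p adds no independent support. Nalf1 was not tested in this way. Unc79 and Unc80 kept their calls after renewed quantile normalization and after centring. With the methods' t-test after adjustment, only 1 of the 3 NALCN complex genes measured passed, where limma called 2.

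Genes of channel partners were then counted over lists written from general knowledge. Earlier results of these data were known at that time, so the counts below are a description and not independent of the values. Of 32 partner genes measured, 7 were higher and 0 lower with limma, which is 21.9% higher where the background is 9.23%. At an unadjusted p under 0.05 the counts were 10 and 2, and the methods' t-test gave 5 and 0 after adjustment. The split of 7 and 0 was also found after renewed quantile normalization and after centring on array medians. Without control 1 the count was 13 higher and 0 lower, and without control 2, or any 1 of the mutants, Ank2 was lost. The background has no filter on level, and its share depends on dim genes. In either direction, 3023 of 19938 genes were called, and 3069 of 14922 after genes under a mean log2 of 5.43 were dropped. Of the partner genes, 8 were called after that filter.

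Of 12 genes of initial segments and nodes, 3 were higher and 0 lower. Cntn2, which encodes an adhesion molecule of the region beside nodes, was at 7.66, 7.41 and 7.504 in controls and at 8.11, 8.27 and 8.16 in mutants. Its groups were well apart, with a log2 change of 0.65 (interval 0.48 to 0.83, adjusted p = 6.64e-04 from limma). Cntnap1, which encodes the axonal junction protein Caspr, had a log2 change of 0.32 (adjusted p = 0.00461 from limma). Ank2, which encodes ankyrin B of the axon shaft, had 0.37 (adjusted p = 0.0184 from limma). Its call was lost without control 2 and without any single mutant array. Ank3, the gene of ankyrin G, had a log2 change of 0.12 with an interval of -0.066 to 0.31 and did not pass (adjusted p = 0.404). In the same list Sptbn4, the spectrin that binds ankyrin G, had 0.047 and Trim46, a microtubule organizer of the initial segment, -0.0020. Lowest in the list were Sptan1 at -0.15 and Nrcam at -0.13, which did not pass (adjusted p = 0.215 and 0.190 from limma). Sptbn1, a further spectrin and the next of the list by p, had 0.18 (adjusted p = 0.130 from limma).

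Of 13 genes that regulate sodium channels, 2 were higher (15.4%) and 0 lower, where the background is 9.23% higher and 5.93% lower. So small a count says nothing about the list. Bace1 encodes the protease known to cleave beta subunits. It was at 10.88, 10.81 and 10.81 in controls and at 11.13, 11.19 and 11.16 in mutants, without overlap. Its log2 change was 0.33 (interval 0.21 to 0.44, adjusted p = 0.00326 from limma). Csnk2a2, a catalytic subunit of the kinase CK2, which strengthens the binding of channels to ankyrin G, had a log2 change of 0.45 (adjusted p = 0.00146 from limma). Its relative Csnk2a1 had -0.13 and did not pass (adjusted p = 0.176). Fyn, a kinase that acts on Nav1.2, came next by p, with a log2 change of 0.23 (adjusted p = 0.0518). Fgf11, one of the FGF homologous factors that bind the tail of the pore, had -0.36 (adjusted p = 0.121), and the other factors, Fgf12, Fgf13 and Fgf14, had 0.030, -0.14 and 0.049.

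**Figure D3:**
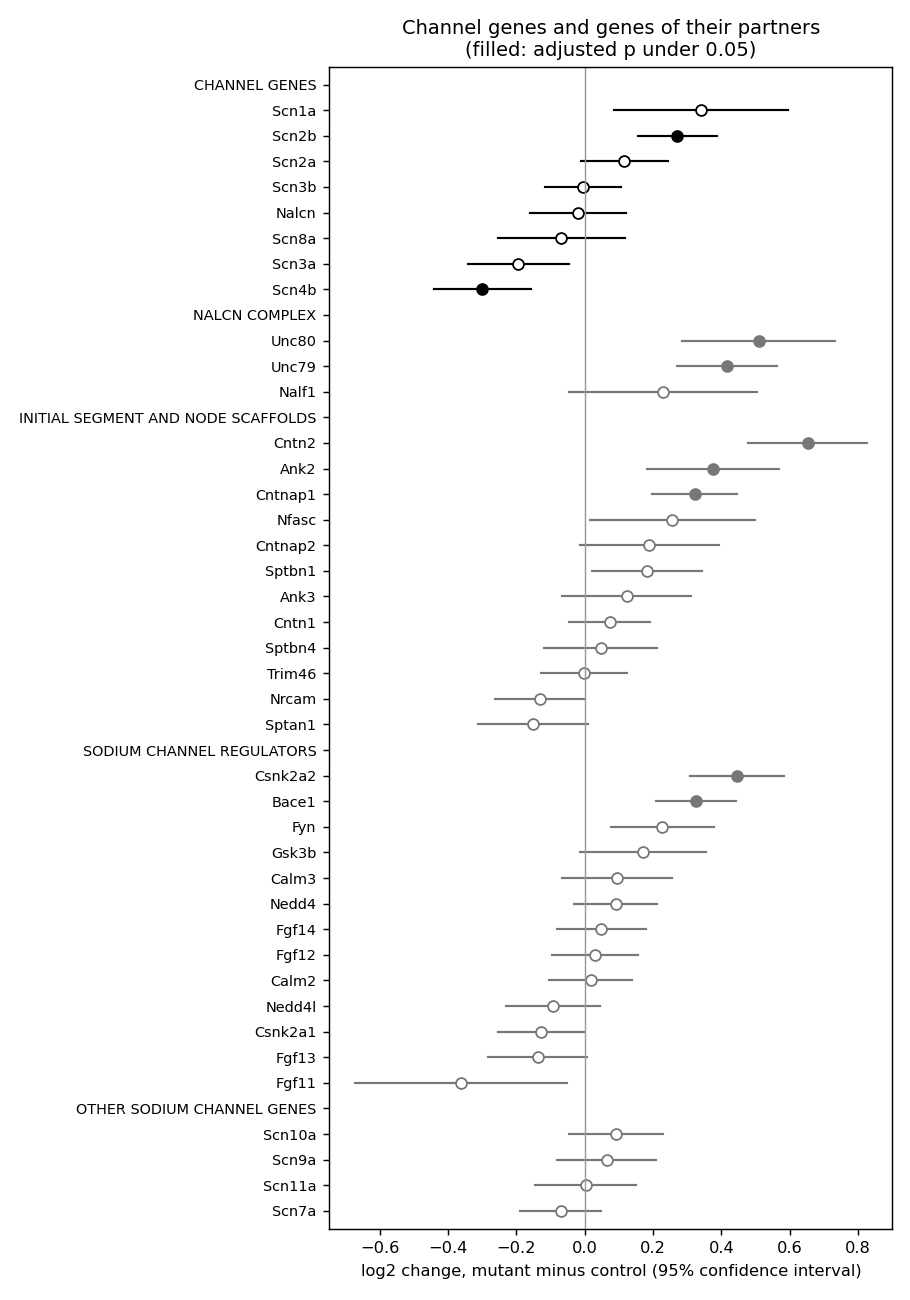
Log2 change (mutant minus control, horizontal axis) with its 95% confidence interval from limma for the 8 channel genes, in black, and for 32 genes of their partners, in grey (n = 3 arrays per group). Filled circles are genes with an adjusted p under 0.05. All 7 filled grey circles lie to the right of 0, with Cntn2 at 0.65 and Unc80 at 0.51, while the 2 filled black circles, Scn2b and Scn4b, lie on either side of it.

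Finally, genes with a profile like that of a called member were sought among 17083 other genes. The measure was the root mean square difference over the 6 arrays between log2 profiles, each minus its control mean. Closest to Scn2b were Polb, a DNA repair polymerase, at 0.020, and the ribosomal protein gene Rpl22 and Prxl2c, both at 0.023. Closest to Scn4b were the microglia marker Tmem119 and Tbrg3, both at 0.022, and the phosphatase subunit Ppp2r5a at 0.031. All 6 genes passed the test in the direction of their member, which the measure favours. Of 10 microglia markers 0 were higher and 1, Tmem119, was lower with limma. All 10 had negative log2 changes, from -0.36 to -0.064 with a median of -0.26, beside the -0.30 of Scn4b. The mean level of the list was 6.90 to 7.32 in control and 6.84 to 6.999 in mutant arrays. The part of microglia in the Scn4b values was not tested. Of the remaining lists, 2 of 10 astrocyte markers, 2 of 10 endothelial and mural markers and 0 of 11 oligodendrocyte markers were higher, and 0 in each were lower. Pyramidal and mossy cell markers had 2 higher and 3 lower of 11. The background for each of these marker counts is 9.23% higher and 5.93% lower of all genes. Counts this small do not show a change of a cell type. For oligodendrocyte markers the counts at an unadjusted p under 0.05 were 0 higher and 2 lower, and 0 passed the methods' t-test after adjustment.

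The calls of the 8 genes under other ways of processing are drawn together in a plot. Scn2b kept its direction and size throughout, Scn4b kept its direction, and Scn1a and Scn3a crossed the threshold in some settings and not in others. Scn2a, Scn8a, Scn3b and Nalcn passed in 0 of 18 other settings, with smallest p values, adjusted in all settings but the unadjusted form of the methods' t-test, of 0.0545, 0.176, 0.486 and 0.348 among them.

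**Figure D4:**
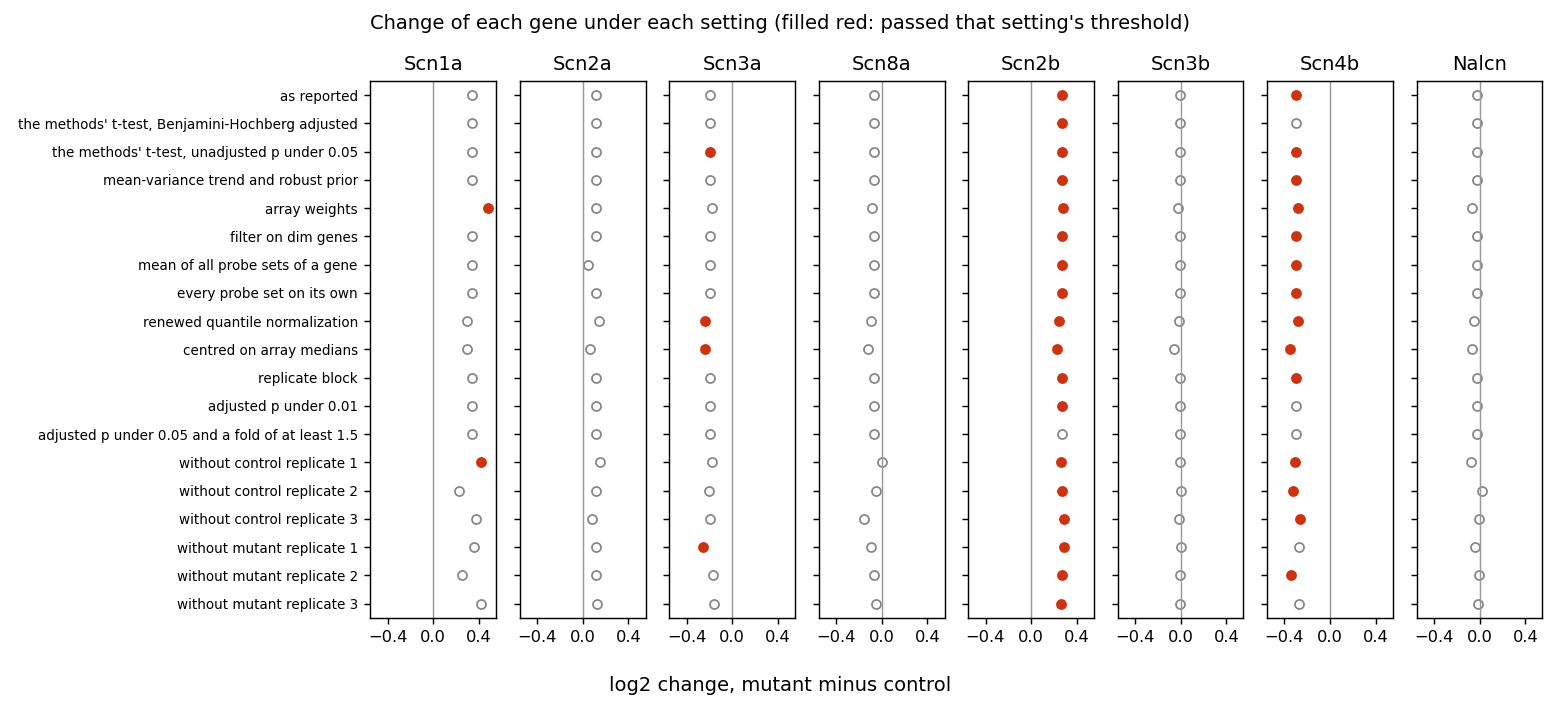
Log2 change of each of the 8 genes (mutant minus control, horizontal axes) as reported and under 18 other settings (rows). Filled red circles passed the threshold of that setting and open grey circles did not. The circles of Scn2b stay between 0.22 and 0.29, and those of Scn1a between 0.23 and 0.48.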

How the data were processed

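Affymetrix arrays measured RNA of laser-captured dentate granule cells, 1 array for each of 3 controls and 3 mutants. The authors deposited log2 values per probe set, computed by RMA with the Affymetrix Expression Console, per the labels. Versions, settings and the probes' genome build are not stated. Because RMA equalizes the distributions of arrays, a shift shared by all genes cannot be seen. Of 35556 probe sets, 21789 are paired with 1 gene in the platform annotation, 1621 with several and 12146 are not listed. The probe set of highest mean was kept for each of 999 genes that had several, which left 19938 genes, with no filter on level. Groups, taken from the sample titles, entered a limma 3.58.1 fit without covariates (R 4.3.3, moderated and two-sided), which was checked on simulated data. The methods used BRB-ArrayTools and, for comparing groups in general, an unpaired t-test, which was an alternative.

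The 8 genes and all lists were chosen with earlier results of these data known, and no set test was run. Named are all 8 genes with every probe set, all other sodium channel and NALCN complex genes measured, called scaffold and regulator genes (4 at least), and the 3 genes of most similar profile for Scn2b and Scn4b. Ank3, Sptbn4, Trim46, Csnk2a1, Fgf12, Fgf13 and Fgf14 fall outside this rule and were named for their roles after their values were seen, as were the marker genes. Sptan1 and Nrcam also fall outside it and were named as the lowest of their list. Some genes of the lists are not reported here. Precision is limited by having 3 arrays a group. Alternatives were the t-test, array weights, a robust variance trend, dropping genes under a mean log2 of 5.43, means of probe sets, single probe sets, renewed quantile normalization, centring, a replicate block, stricter thresholds and leaving out each array.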

Additional observations from a re-analysis of the deposited data

How the results depend on the processing

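Under the 18 alternatives, the number of the 8 channel genes called (2 as reported) was 1 with the methods' t-test after adjustment, 1 at an adjusted p under 0.01 and 0 where a 1.5-fold change was also required. It ranged from 1 to 3 when each array was left out. The number of partner genes called (7) was 14 with array weights, 1 with a fold of at least 1.5, and from 6 to 13 without each array. The number of all genes called (3023) was 1141 with the methods' t-test after adjustment, 4545 at its unadjusted p under 0.05, 5527 with array weights, 1965 with every probe set on its own, 1554 at an adjusted p under 0.01, 709 with the 1.5-fold minimum, and from 1886 to 4487 without each array, the highest without control 1. Scn4b (-0.30) did not pass with the methods' t-test after adjustment, at an adjusted p under 0.01 or with that minimum. Among its values from -0.35 to -0.26 without each array, it did not pass without mutant 1 or without mutant 3. Scn2b (0.27) did not pass with a fold of at least 1.5 alone. Scn1a was called with array weights (0.48) and, among values from 0.23 to 0.42 without each array, without control 1. Scn3a was called at an unadjusted p of the methods' t-test (-0.19), after renewed quantile normalization (-0.24) and after centring (-0.24), and, among values from -0.26 to -0.16 without each array, without mutant 1. The sign turned for Scn8a without control 1 (0.0041), and for Scn3b and Nalcn without control 2 (0.0042 and 0.017), none of which passed. The cause of these differences was not tested.

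Same-numbered arrays had correlations of 0.16, -0.033 and 0.12 of their deviations from the group means, and no source says what a number marks, so they were not treated as pairs. With the replicate number as a block, 3176 genes, 8 partner genes and 2 channel genes (Scn2b and Scn4b) were called, and no call among the 8 channel genes changed. The files hold no measure of signal over background, which limits the values of genes under the array medians, Scn4b and the other measured sodium channel genes Scn7a, Scn9a, Scn10a and Scn11a among them.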
